A study of Saccharomyces cerevisiae with 4 samples.

Results

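The proteins of the small (40S) ribosomal subunit of budding yeast are encoded by genes named RPS, and the ratios of their transcripts between RNA bound to Mex67 and total RNA are described here. Members were the genes whose symbol in the platform's probe annotation was RPS, a number and at most a letter A or B. This gave 54 genes with 108 probes among the 5539 named genes with a probe, and the Entrez identifier of all 108 probes led to the same symbol in the RefSeq gene table of the R64 assembly. Of the 54 genes, 17 had a ratio on at least 3 of the 4 arrays and entered the tests, 10 had a ratio on 1 or 2 arrays, and 27 had none. Of the 17, 15 are described by name.

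The small subunit binds the mRNA, scans it for the start codon and reads each codon against its tRNA. Yeast makes most proteins of the subunit from a pair of near-identical genes, the A and B copies, and their transcripts belong to the most abundant in growing cells. Many of these genes carry an intron, although introns are rare in yeast, so that their transcripts are spliced before the export receptor Mex67, with its partner Mtr2, takes them through the nuclear pore. Mex67 is recruited to transcripts through adaptor proteins that load during transcription and processing.

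RNA of Saccharomyces cerevisiae precipitated with a tagged Mex67 (zzMex67) and total RNA shared each of 4 two-colour DNA arrays, and each probe gave 1 ratio of the 2 sources. Channel 2 held the precipitated RNA on arrays 1 and 2, and channel 1 held it on arrays 3 and 4. All 4 arrays form 1 group, the labels used here give no strain or growth conditions, and no mock precipitation from untagged cells was analysed. The labels do not tie the arrays to separate cultures, so the p-values cover the spread between the 4 arrays alone, and this spread may be technical.

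Values are log2 ratios relative to the array median, the median over the 498 genes with a ratio on at least 3 arrays. A value of 1 is thus a ratio 2 times that of the median gene on the same array. Precipitated over total RNA is the likely direction of the ratios, since each array title names the Mex67 precipitate before total RNA. It is not stated, and if the ratios ran the other way each "above" and "below" would turn. All 4 arrays were read as running the same way, which is not stated either, although the precipitated RNA changed channel between arrays. With arrays 3 and 4 turned against the others, 0 of the 498 genes differed from the median (limma, adjusted p under 0.05). The calls below therefore rest on this reading. Between 6.60% and 19.3% of 12800 probes had a ratio on an array. Array 1 stood apart: over the tested genes it correlated with arrays 2, 3 and 4 at r = 0.04, 0.22 and 0.14, whereas arrays 2 to 4 correlated with each other at r = 0.79 to 0.89. Over the 17 tested RPS genes the 3 correlations among arrays 2 to 4 were 0.90 to 0.97, and over the 6 of these genes with a ratio on array 1 those of array 1 with arrays 2, 3 and 4 were -0.65, -0.52 and -0.51. Both are given as a description, since the genes share their arrays. The median of array 1 rested on 100 genes and lay at -1.71 before centring, against -3.19 for all its probes with a ratio. On arrays 2, 3 and 4 these medians were 1.74 and 1.53, -3.71 and -3.74, and -1.61 and -1.72.

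The tested RPS genes lay on both sides of the array median. RPS27B, RPS21B, RPS21A and RPS28B lay above it, RPS1B and RPS31 lay below it, and 11 did not pass (moderated test of limma, p-values adjusted over the 498 genes by Benjamini-Hochberg, adjusted p under 0.05). The 4 above are 23.5% of the 17, against 20.3% of all tested genes called above, and the 2 below are 11.8%, against 21.3% of all tested genes called below. In either direction 35.3% of the RPS genes were called, against 41.6% of all tested genes. The means of the 17 genes ran from -1.13 to 2.78, with a median of 0.31, against a median of -0.01 and a range of -4.47 to 4.23 over all tested genes. Of the 17, 11 (64.7%) lay on the same side of the median on each array with a value, against 66.7% of all tested genes.

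**Figure D1:**
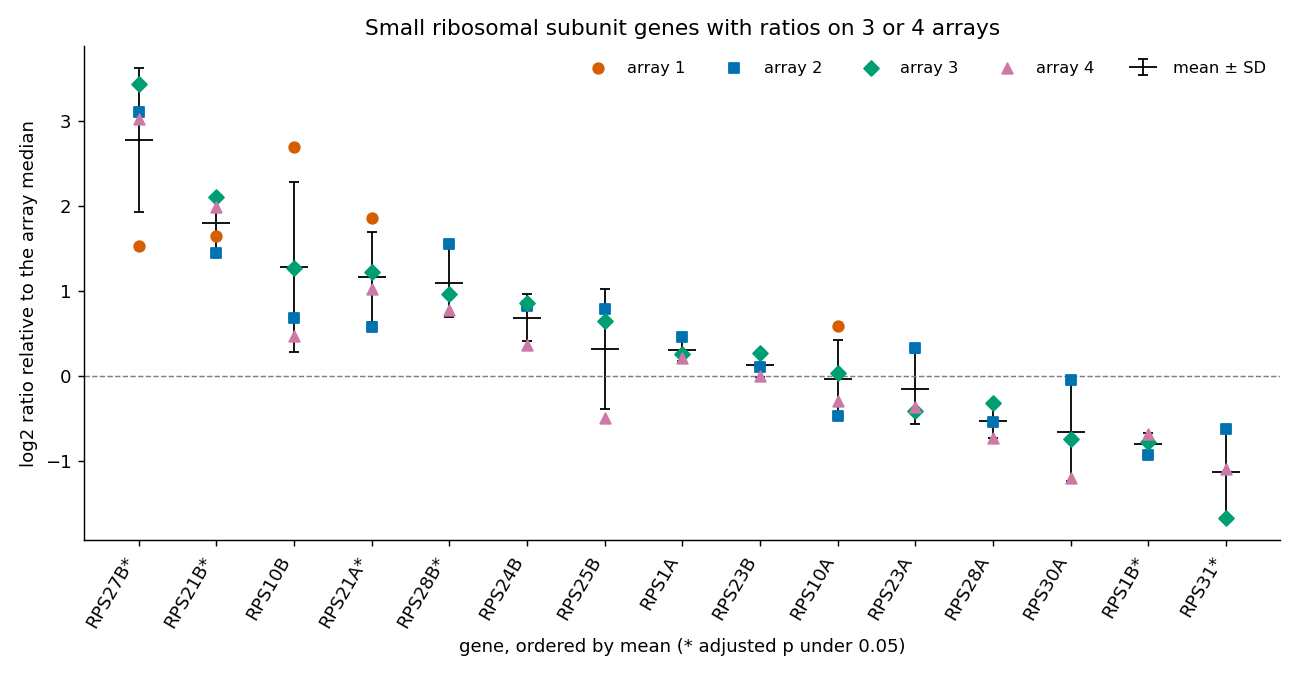
Log2 ratio relative to the array median (y axis) for 15 small subunit genes with ratios on 3 or 4 arrays (x axis, ordered by mean). Symbols are single arrays, black bars are the mean ± SD over arrays, and an asterisk marks an adjusted p under 0.05. RPS27B lies highest, with a mean of 2.78, and RPS31 lowest, with a mean of -1.13.

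On the platform side of the subunit, where the mRNA leaves, lie Rps27, a zinc-binding protein, Rps1, and Rps21, which binds next to Rps0 and is needed for the maturation of the 18S rRNA. RPS27B had the highest mean of the RPS genes, with log2 ratios of 1.54, 3.11, 3.43 and 3.03 on arrays 1 to 4. All 4 arrays put it above the median, and array 1 gave the lowest value. Relative to the median of all probes with a ratio on array 1, it was at 3.01 there. The mean of 2.78 ± 0.84 (SD, n = 4) corresponds to 6.85-fold above the median gene, rank 15 of 498 (limma, adjusted p = 0.00509). Its 2 probes gave close values, differing by 0.28 on average over the 4 arrays.

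Both genes for Rps21 lay above the median on every array. RPS21B had 1.64, 1.45, 2.11 and 1.99 on arrays 1 to 4, with a mean of 1.80 ± 0.30 (SD, n = 4; limma, adjusted p = 0.00479). RPS21A had 1.85, 0.58, 1.22 and 1.02, with a mean of 1.17 ± 0.53 (SD, n = 4; limma, adjusted p = 0.0181). The small spread of RPS21B between arrays covers a large difference between its probes. The first probe gave 1.61, 3.12, 3.48 and 3.67, and the second 1.67, -0.22, 0.74 and 0.31. On arrays 2 to 4 the first probe was thus 2.75 to 3.35 higher, while on array 1 both gave the same value to within 0.06. For RPS21A the probes differed by 0.23 to 0.72.

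The genes for Rps1 lay on opposite sides of the median. RPS1B had -0.93, -0.78 and -0.69 on arrays 2 to 4 and no ratio on array 1, with a mean of -0.80 ± 0.12 (SD, n = 3; limma, adjusted p = 0.0434). This call ended with a term for the channel (limma, adjusted p = 0.0652) and with the code in the array titles as a random block (limma, adjusted p = 0.0503), a code that arrays 1 and 3 share and arrays 2 and 4 share. RPS1A had 0.46, 0.26 and 0.21 on the same arrays, with a mean of 0.31 ± 0.13 (SD, n = 3), and did not pass (limma, adjusted p = 0.288). The 3 values of each gene lay close together, and those of the 2 genes did not overlap.

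In the head of the subunit, Rps28 sits by the mRNA exit and Rps10 by the mRNA entrance. Rps28 made from RPS28B is known to bind the RPS28B transcript itself and to trigger its decay through Edc3. RPS28B had 1.55, 0.97 and 0.78 on arrays 2 to 4, with a mean of 1.10 ± 0.40 (SD, n = 3; limma, adjusted p = 0.0322). RPS28A, at -0.54, -0.32 and -0.72, was under the median on all 3 arrays and did not pass (mean -0.53 ± 0.20, SD, n = 3; limma, adjusted p = 0.123). RPS10B had 2.70, 0.69, 1.27 and 0.47 on arrays 1 to 4, above the median on all, and missed the threshold (mean 1.28 ± 1.00, SD, n = 4; limma, adjusted p = 0.0546). Without array 1, where it was highest, its mean was 0.81 ± 0.42 (SD, n = 3) and passed (limma, adjusted p = 0.0388). RPS10A stayed near the median, at 0.59, -0.47, 0.04 and -0.29 (mean -0.03 ± 0.46, SD, n = 4; limma, adjusted p = 0.920). Relative to the median of all probes with a ratio on array 1, RPS10A was at 2.06 there and RPS10B at 4.18.

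Rps31, at the beak of the head, is made as a fusion to ubiquitin that is later cut off, and RPS31 was the lowest of the tested RPS genes. It had -0.62, -1.66 and -1.09 on arrays 2 to 4, each below the median, with a mean of -1.13 ± 0.52 (SD, n = 3), 2.18-fold below the median gene (limma, adjusted p = 0.0406). This call ended with a term for the channel (limma, adjusted p = 0.0698). RPL40A, a large subunit gene that also encodes a ubiquitin fusion, had a mean of 2.24 ± 0.54 (SD, n = 4) and lay above (limma, adjusted p = 0.00479). The difference between these 2 genes was not tested. RPS25B, for a head protein known for its part in initiation at internal ribosome entry sites, had 0.79, 0.65 and -0.49 on arrays 2 to 4 and did not pass (mean 0.32 ± 0.70, SD, n = 3; limma, adjusted p = 0.489). All 3 values came from its first probe alone.

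RPS24B, RPS23A, RPS23B and RPS30A did not pass, and they are not a list set before the tests. Of all tested genes 41.6% were called in either direction. RPS24B had 0.83, 0.87 and 0.37 on arrays 2 to 4 (mean 0.69 ± 0.28, SD, n = 3; limma, adjusted p = 0.0760), and its human counterpart RPS24 is mutated in Diamond-Blackfan anaemia. Rps23 takes part in the accuracy of decoding. RPS23A had 0.33, -0.41 and -0.36 on arrays 2 to 4 (mean -0.15 ± 0.42, SD, n = 3), and RPS23B had 0.11 and 0.28 on arrays 2 and 3 and was itself the median gene on array 4 (mean 0.13 ± 0.14, SD, n = 3). Rps30 lies by the decoding site, and its mammalian counterpart is made as a fusion to a ubiquitin-like protein. RPS30A had -0.04, -0.74 and -1.19 on arrays 2 to 4, all below the median (mean -0.66 ± 0.58, SD, n = 3; limma, adjusted p = 0.152). On array 2 its probes gave 0.27 and -0.36, and on arrays 3 and 4 the value came from the first probe alone.

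Some calls ended when 1 array was left out. Without array 1 all 6 calls held, and RPS10B and RPS24B were among the genes that joined those above, giving 7 above and 2 below (limma). Over all 498 tested genes 139 then lay above and 138 below, against 101 and 106 with all 4 arrays. Without array 2 the calls of RPS28B, RPS1B and RPS31 ended, and without array 3 or array 4 those of RPS21A, RPS28B, RPS1B and RPS31, while RPS27B and RPS21B passed with any 1 array left out. Calls over all tested genes also fell, to 153, 90 and 58 of 498 without arrays 2, 3 and 4, against 207 with all. For RPS28B, RPS1B and RPS31 each of these fits left 2 arrays. Their means stayed at 0.88 to 1.26, -0.85 to -0.73 and -1.38 to -0.86. Of the 17 genes, 11 had no ratio on array 1, so that the precipitated RNA was in channel 1 on 2 of their 3 arrays and the mean of these genes does not balance the dyes.

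Some values also moved with the probe number, taken here as a stand-in for position on the array. No slide positions were used, so whether neighbouring numbers lie side by side was not checked. Probes were divided into blocks of 400 consecutive probe numbers, and the block of RPS27B had medians of 1.60, 0.10, 2.26 and 1.14 on arrays 1 to 4, resting on 5, 16, 11 and 11 probes. The block of RPS21B had medians of -1.81, 0.51, 1.53 and 0.74, resting on 27, 13, 10 and 11 probes. On array 1 the block median of RPS27B was the value of its own first probe. With each ratio centred on the median of the other genes' probes in its block, RPS27B had a mean of 1.89 and RPS21B of 1.56, and the calls of both and of RPS31 ended (limma, adjusted p = 0.0509, 0.0605 and 0.0824). Over all tested genes 171 of 498 were then called, against 207 with the array median. What part position has in these ratios was not tested.

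The A and B copies of a gene were compared by the difference of their log2 ratios on each array, in which the array median cancels. In the whole annotation 13 A and B pairs had both copies on at least 3 shared arrays, 6 of them RPS, 5 RPL and 2 of the stalk proteins. Of the 6 RPS pairs, 4 differed (limma on the differences, adjusted over the 13 pairs), against 9 of the 13, or 69.2%, over all pairs. The A copy lay above the B copy in 2 RPS pairs, against 30.8% of all pairs, and the B copy above the A copy in 2, against 38.5% of all pairs. In 4 RPS pairs the same copy was higher on each shared array, against 76.9% of all pairs. Of the 6 pairs, 5 are described below, 3 of which differed. The size of the difference had a median of 1.21 for the RPS pairs and 1.06 for the RPL pairs. Near-identical genes can share signal on an array. No probe sequences were used here, so how far each probe separates the copies is unknown.

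RPS1A lay above RPS1B, and in the pairs for Rps28 and Rps10 the B copy lay above the A copy. RPS1A minus RPS1B was 1.39, 1.04 and 0.90 on arrays 2 to 4 (mean 1.11 ± 0.25, SD, n = 3; limma, adjusted p = 0.0166). RPS28A minus RPS28B was -2.09, -1.29 and -1.50 on the same arrays (mean -1.63 ± 0.41, SD, n = 3; limma, adjusted p = 0.00411), 3.09-fold in favour of RPS28B. In both pairs the probes of 1 copy lay above all probes of the other on each of the 3 arrays. How often probes separate in the RPL and stalk pairs was not examined.

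RPS10A minus RPS10B was -2.12, -1.16, -1.23 and -0.76 on arrays 1 to 4 (mean -1.32 ± 0.57, SD, n = 4; limma, adjusted p = 0.00501). The probes of the copies separated on 3 of the 4 arrays. The block that holds RPS10A had medians of 0.67, -0.75, -1.21 and -1.21 on arrays 1 to 4, and that of RPS10B 3.09, -0.83, 0.42 and 0.27, those on array 1 resting on 3 and 4 probes. Centred on the other genes' probes in each block, the difference was 0.58, -1.26, 0.33 and 0.73, so that array 2 kept its sign and the other three turned. Its mean was 0.09 and did not pass (limma, adjusted p = 0.894), whereas RPS28A minus RPS28B was -2.30 and passed (limma, adjusted p = 0.00252). RPS1A minus RPS1B was then 0.83 and did not pass (limma, adjusted p = 0.303), nor did it with a term for the channel, at 1.18 (limma, adjusted p = 0.0809). With the first listed probe of each gene alone, RPS10A minus RPS10B was -0.45 and did not pass (limma, adjusted p = 0.327). Without array 2 or array 3 the calls of RPS10, RPS1 and RPS28 ended, and without array 4 those of RPS1 and RPS28, with 2 arrays left for RPS1 and RPS28. The differences themselves stayed at -1.37 and -1.35 for RPS10 without arrays 2 and 3, at 0.97 to 1.21 for RPS1 and at -1.80 to -1.40 for RPS28. Over all 13 pairs 4, 5 and 6 were called without arrays 2, 3 and 4, against 9 with all.

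The pairs for Rps21 and Rps23 did not pass. RPS21A minus RPS21B was 0.21 on array 1 and -0.87, -0.89 and -0.97 on arrays 2 to 4 (mean -0.63 ± 0.56, SD, n = 4; limma, adjusted p = 0.0941). Without array 1 the mean was -0.91 and passed (limma, adjusted p = 0.00524), but on none of the 4 arrays did the probes of the copies separate, as the 2 probes of RPS21B lay on either side of those of RPS21A on arrays 2 to 4. RPS23A minus RPS23B was 0.22, -0.68 and -0.36 on arrays 2 to 4 (mean -0.27 ± 0.46, SD, n = 3; limma, adjusted p = 0.453). With the first listed probe of each gene alone it was -1.23 and passed (limma, adjusted p = 0.0357). An exact sign-flip permutation test, two-sided, cannot go below p = 0.125 with 4 arrays or p = 0.25 with 3, and so gave no call.

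**Figure D2:**
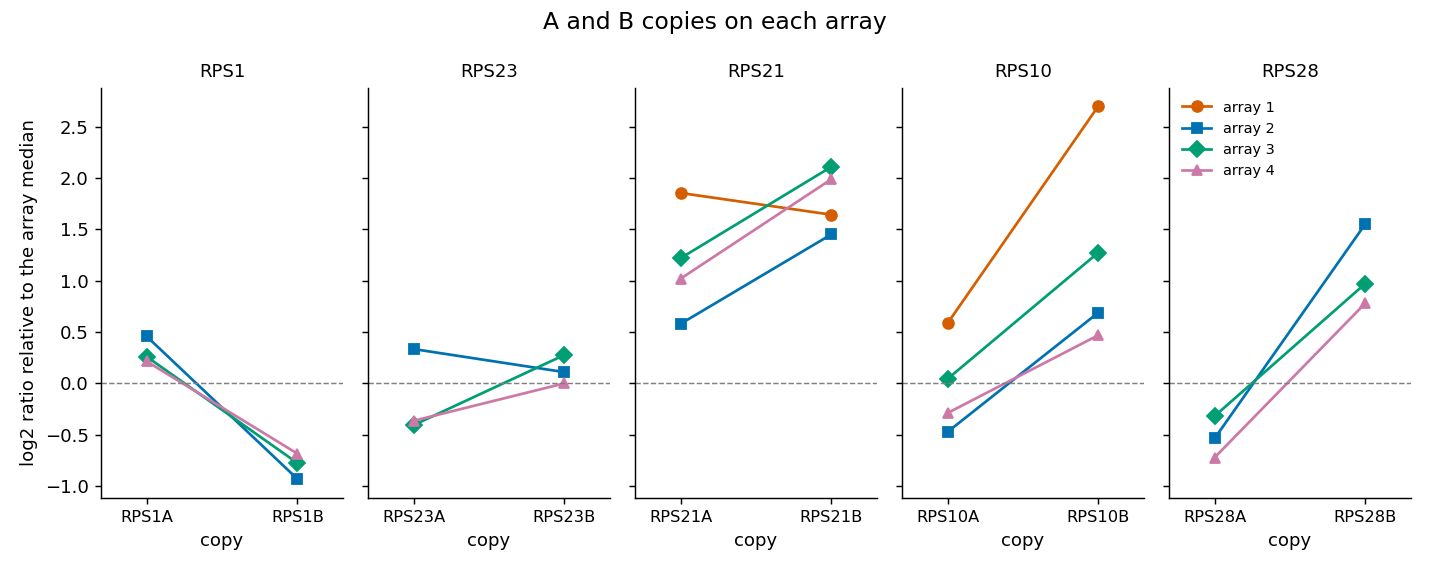
Log2 ratio relative to the array median (y axis) of the A copy (left) and the B copy (right) of 5 small subunit pairs, with a line for each array on which both had a ratio. The lines of RPS1 run down and those of RPS28 and RPS10 run up on each shared array.

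Each RPS gene had 2 probes with consecutive numbers, and whether these hold the same sequence is not stated in the annotation. Among the tested RPS genes, 16 had both probes on at least 1 array. The difference between the probes of a gene, without its sign and averaged over arrays, had a median of 0.66, against 0.45 over 392 tested genes of the whole table. It passed 1 for 6 of the 16, among them RPS21B, RPS10B, RPS23A, RPS23B and RPS24B. How many of the 392 genes passed 1 was not counted, so the 6 cannot be set against all tested genes. For RPS23B the first probe gave 0.84, 0.31 and 0.98 on arrays 2 to 4 and the second -0.62, 0.24 and -0.98, so that its mean near 0 joins 1 probe above the median with 1 that was below it on arrays 2 and 4. For RPS10B the first probe gave -0.02, 1.04 and -0.41 and the second 1.40, 1.51 and 1.35, while the value of 2.70 on array 1 came from the first probe alone.

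**Figure D3:**
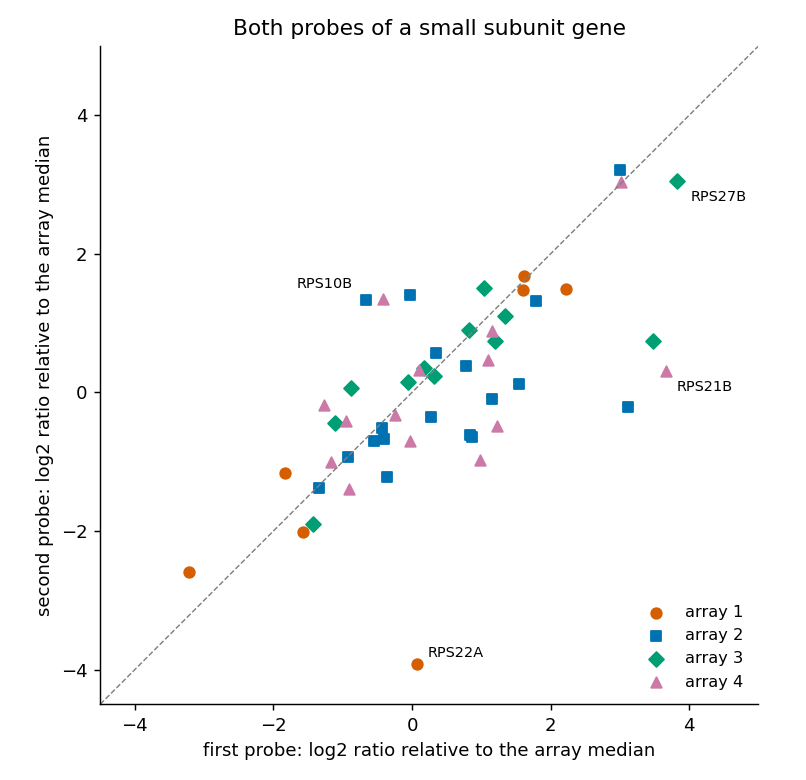
Log2 ratio relative to the array median of the second probe (y axis) against the first probe (x axis) of the small subunit genes described, 1 point for each array on which both had a ratio, with the line of equality dashed. RPS21B lies far from the line on arrays 2 to 4 and RPS22A on array 1, where its probes gave 0.07 and -3.92.

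The 10 genes with ratios on 1 or 2 arrays were not tested. RPS4A, RPS8A, RPS9A and RPS27A had a ratio on array 2 alone, at -0.97, -0.79, -1.10 and 0.11; Rps9 is a protein that guards decoding accuracy. RPS22B and RPS14B had one on array 1 alone, at -1.79 and -2.91; Rps14 is known to bind the RPS14B transcript and hold back its splicing. RPS0B, whose protein is a relative of the laminin receptor, had -2.12 on array 1 and -1.36 on array 2. RPS22A had -1.92 on array 1 and 0.53 on array 2, and RPS30B had -1.49 and 0.53 on the same arrays. RPS7B had 0.20 on array 2 and -1.16 on array 4. The 5 of these genes on array 1 all lay below its median there, from -2.91 to -1.49. That median rested on 100 genes, and relative to the median of all probes with a ratio on array 1 the same genes lay between -1.43 and -0.02. For each of the 5, at least 1 probe matched a ratio of whole numbers there, such as 3 to 92 for RPS14B, 3 to 149 for RPS22A and 35 to 256 for RPS30B. So did 528 of the 845 probes with a ratio on array 1. How near these signals were to background was not tested.

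In 3 further pairs the copies shared a single array. On array 2 RPS27A was at 0.11 and RPS27B at 3.11, a difference of -3.00, and RPS30A was at -0.04 and RPS30B at 0.53. On array 1 RPS22A was at -1.92 and RPS22B at -1.79. These differences have no replicate.

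Many members gave no ratio on any array. A ratio on at least 1 array was found for 27 of the 54 genes (50.0%), against 1750 of all 5539 genes (31.6%), and 31.5% of the RPS genes were tested, against 8.99% of all genes. Of the 7 genes with a single copy, RPS31 had ratios and RPS2, RPS3, RPS12, RPS13, RPS15 and RPS20 had none, while 26 of the 47 genes of A and B copies had some. Of 23 pairs with a probe for each copy, 9 had ratios for both copies, 7 for 1 copy (3 the A copy, 4 the B copy) and 7 for neither, among them RPS6, RPS16, RPS18, RPS19, RPS26 and RPS29. Further genes without a ratio were RPS0A, RPS4B, RPS7A, RPS8B, RPS9B, RPS24A and RPS25A. The rule that left a probe without a value is not given here, so a missing ratio says nothing of Mex67 binding. The share of probes with a ratio on array 2, in the block that holds the gene, had a median of 17.2% for the 27 members with a ratio and 10.8% for the 27 without.

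The genes for the large subunit, which joins the small one at the start codon, also lay on both sides. Against 4 above, 2 below and 11 uncalled of 17 RPS genes, with a median of 0.31, the 21 tested RPL genes had 4 above, 5 below and 12 uncalled, with a median of -0.44. Of 4 tested genes for the stalk proteins, 1 was called above, 1 below and 2 in neither direction, with a median of 0.47. No test of these differences between families was made.

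**Figure D4:**
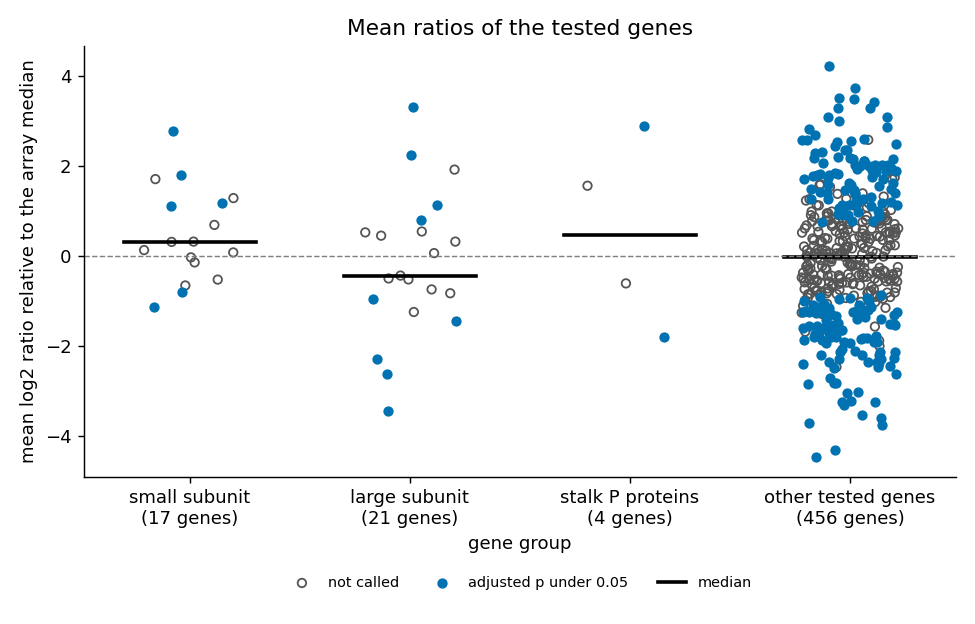
Mean log2 ratio relative to the array median (y axis) of each tested gene, for small subunit, large subunit, stalk and other tested genes (x axis); filled points have an adjusted p under 0.05 and black lines are medians. The small subunit genes run from -1.13 to 2.78, within the range of the other groups, with medians of 0.31, -0.44, 0.47 and -0.02 from left to right.

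Genes that build, use or regulate the small subunit were tested in shares of 6.15%, 4% and 18.2%, against 8.99% of all genes. Of 65 factors of 40S assembly with a probe, 4 were tested and 0 passed (limma; 0 at an unadjusted p under 0.05), against 41.6% of all tested genes. These 4 were NOC4 at 0.50, NOB1, the nuclease that makes the 3′ end of the 18S rRNA, at -0.28, SOF1 at -0.42 and DBP8 at -0.95. Of 25 initiation factors and proteins bound to the 40S subunit, ASC1 alone was tested. It encodes the yeast RACK1, a 40S protein outside the RPS names, and stayed at 0.06 ± 0.28 (SD, n = 4; limma, adjusted p = 0.823). Of 11 regulators of ribosomal protein genes, 2 were tested. IFH1, a coactivator at ribosomal protein promoters, lay below at -3.71 ± 0.05 (SD, n = 3; limma, adjusted p = 0.00406), and HMO1 did not pass at 0.17 ± 0.42 (SD, n = 3; limma, adjusted p = 0.630).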

How the data were processed

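The deposited values were read as log10 ratios of the 2 channels. The base was taken from the values: on arrays 1 and 2, 528 and 336 of them match the log10 of 2 whole numbers of at most 300 divided by each other, within 1.2e-09. On arrays 3 and 4 only 6 and 20 do, so the base was not shown there and was taken to be the same. The authors' background correction, normalization and rule for missing values are not stated in these sources. Gene symbols came from the platform annotation of GEO, which may be outdated: of the probes, 11138 had 1 symbol, 0 several and 1662 none. Arrays are numbered in the order of deposit, which pairs nothing.

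Ratios were converted to log2, probes of a gene averaged per array, and each array centred on its median over genes with values on at least 3 of 4 arrays. Means, and A minus B differences, were set against 0 in a two-sided test (limma 3.58.1, functions lmFit and eBayes, R 4.3.3). The fit was tested on simulated normal values. These had the same spread for every gene and no array that stood apart, unlike these data. Tables and plots were made in Python 3.11.15 (pandas 2.3.3, numpy 2.4.6, matplotlib 3.10.9), and statmod 1.5.0 served the random block. Every member with a value was named, except 2 tested genes that are not reported here and stay in the fits and counts; other genes were taken from lists. Members, lists and tests were chosen with earlier results of these data known. Alternatives were other centring, scaling, filters, probe rules and thresholds, a channel term, the title code as a random block, and leaving out each array; centring on the other genes' probes of a block was added after seeing the data. No sequences were used.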

Additional observations from a re-analysis of the deposited data

How the results depend on the processing

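The counts of RPS genes above (4) and below (2) the median and of RPS pairs that differ (4) changed under several alternatives. Leaving out the centring shifts all genes of an array alike, by -1.71, 1.74, -3.71 and -1.61 on arrays 1 to 4. Then 0 of all 498 genes passed (limma; 43, with 0 of the 17 RPS genes, at an unadjusted p under 0.05), and RPS21A and RPS28B stood at -0.16 and -0.10. Turning arrays 3 and 4 against arrays 1 and 2 cancels values that these arrays share, and 0 of 498 genes and 0 of 13 pairs passed (limma; 1 and 0 at an unadjusted p under 0.05). RPS27B, RPS21B, RPS28B, RPS1B and RPS31 with these arrays turned stood at -0.45, -0.25, -0.067, 0.18 and 0.71, and RPS1A minus RPS1B and RPS28A minus RPS28B at -0.18 and 0.24. Neither alternative bears on the RPS genes in particular. Centred within blocks, 2 RPS genes lay above, 1 below and 2 RPS pairs differed, with RPS10A minus RPS10B at 0.0499. These counts were the same with a gene's own probes left out of its block median, with RPS10A minus RPS10B at 0.0949. Over all 498 genes 92 and 93 then lay above and 76 and 78 below, and 6 and 5 of all 13 pairs differed. Fitted to genes on all 4 arrays, 2 RPS genes lay above and 0 below, as neither gene called below had a ratio on array 1. Of all 73 genes in that fit 9 lay above and 4 below. A further filter took genes on at least 2 arrays that had a ratio with the precipitated RNA in each channel. With it 1 RPS gene lay below, and with the code in the array titles as a random block 1, RPS31 in both. With a channel term 0 lay below (7 RPS genes in either direction at an unadjusted p under 0.05). Over all tested genes 126 of 684, 102 of 498 and 86 of 498 lay below in these settings. At an adjusted p under 0.01, 2 RPS genes lay above and 0 below, against 52 and 43 of all 498 genes. The exact sign-flip test called 0 pairs. With 1 array left out, 2 to 7 RPS genes lay above, 0 to 2 below, and 1 to 5 RPS pairs differed. Calls over all 498 genes ran from 58 without array 4 to 277 without array 1, and those over all 13 pairs from 4 without array 2 to 10 without array 1. The cause of these changes was not tested unless given. Signal over background was not used here.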
